A study of Mus musculus with 83 samples.

Results

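The olfactory receptor genes of the mouse were followed as a reference for genes that embryonic stem cells do not use, with the measured amount of RNA polymerase II (Pol II) over each of them. Members were all genes of the deposited Pol II count tables whose symbol is Olfr followed by a number alone, which left out the pseudogenes marked with a ps suffix. There were 1116 members among the 27752 genes of the tables for the C64 line and among the 55367 genes of the tables for the B8 line. Members were 4.02% of the genes and 0.668% of the summed gene length of the C64 tables. Their median length from first to last annotated base was 5971.5 bp (918 to 156499 bp), and 96 of them were under 1200 bp.

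Olfactory receptors are G protein-coupled receptors that olfactory sensory neurons use to detect odorants, and they form the largest gene family of the mouse. Each mature neuron expresses a single receptor allele, while the remaining receptor genes of that cell, and nearly all of them in other tissues, stay packed in repressive chromatin. The genes lie in clusters along many chromosomes and carry their coding sequence in a single exon. Gene counts over such a family therefore give a picture of the reads that fall on genes with little or no transcription.

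The study profiled Pol II in 24 libraries of mouse embryonic stem cells (mESCs) with CUT&Tag, where a transposase tethered by antibody cuts out the DNA around the protein for sequencing. C64 is an mESC line, made from JM8.N4 cells, in which both alleles of the TATA-box binding protein gene Tbp carry an auxin-inducible degron (mAID-TBP), so that indole-3-acetic acid (IAA) leads to loss of the protein. B8 is a single clone derived from C64 in which the TBP paralog TRF2 (gene Tbpl1) was knocked out. Both lines express a GFP-tagged histone H3.3. The study also lists a HaloTag knocked in at the C-terminus of the largest Pol II subunit in C64, from which B8 was made. The C64 groups of run 2 were controls, 500 µM IAA for 6 h, 30 min of heat shock (42 °C), and heat shock with IAA. The C64 groups of run 3 were controls, IAA for 16 h, retinoic acid for 16 h, and retinoic acid with IAA. B8 controls and B8 cells with 6 h of IAA were measured in run 6 and again in run 8, and each of these 12 groups held 2 libraries, called biological replicates by the study. Controls received the solvent DMSO.

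The libraries held 3854622 to 5056322 assigned reads in C64 and 900651 to 2523832 in B8, counted over the genes of the C64 tables. Levels are given as counts per kb of gene and per 1000000 assigned reads (CPM per kb), and an interval of a share covers counting error only. Of 10 markers of embryonic stem cells 9 had a mean level of 1 or more over the C64 libraries, while Sox2, whose span lies inside that of Sox2ot, was listed at 0. Reads over overlapping genes were not counted. Of 5 markers of primitive endoderm 3 had a mean level of 1 or more in C64. None of 5 markers of mature olfactory sensory neurons had a mean level of 1 or more over the C64 libraries. Single C64 libraries reached 1.23 for Adcy3 and 1.16 for Stoml3, and the B8 mean of Adcy3 was 1.06. The summed level of these 5 neuron markers was 1.33 to 2.89 over the C64 libraries, and Omp, which lies inside the span of Capn5, was listed at 0. Tbpl1 ranged from 0.212 to 0.531 in C64 and from 0 to 0.158 in B8. The degron acts on the protein, so Tbp counts do not check it.

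Over all 24 libraries 85339 reads fell on members, which was 0.0958% of the assigned reads. In C64 the share was 0.0963% ± 0.0239 (SD, n = 16 libraries), with the lowest value of 0.0647% (95% Wilson interval 0.0625 to 0.0669%) in replicate 1 of retinoic acid with IAA and the highest of 0.146% (0.142 to 0.150%) in replicate 2 of the same group. In B8 the share was 0.118% ± 0.0545 (SD, n = 8 libraries). Replicate 2 of the B8 control in run 6 stood apart with 0.238% (0.229 to 0.249%), and without it the B8 mean was 0.101% ± 0.0267 (SD, n = 7). That library also had the fewest assigned reads and the highest median level over all genes, 0.673.

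**Figure D1:**
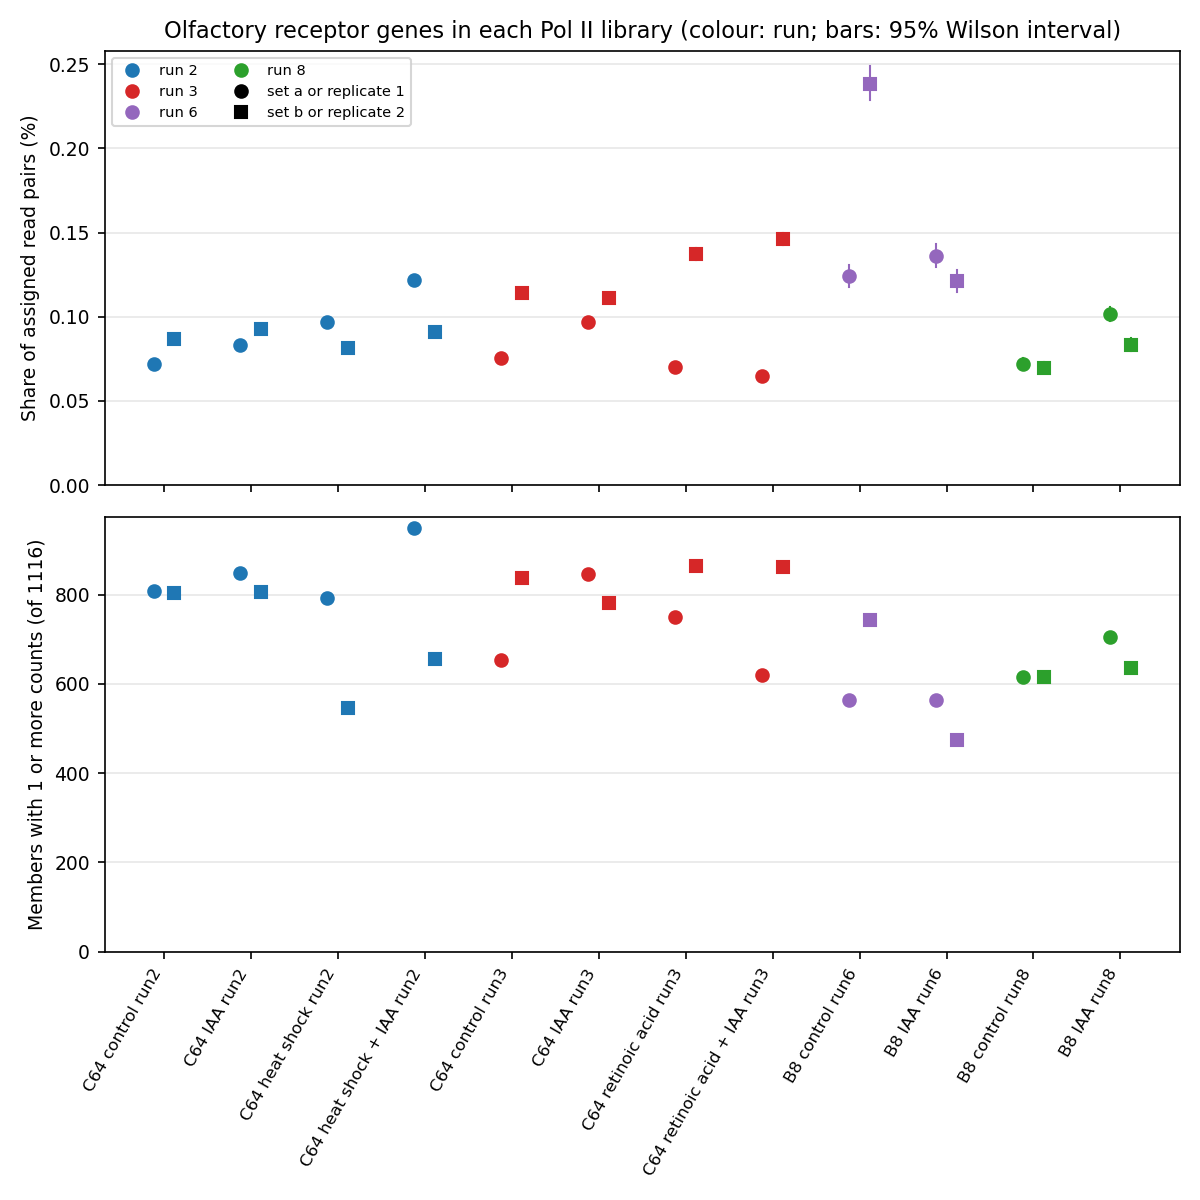
Olfactory receptor genes in each of the 24 Pol II libraries, with the summed share of assigned reads in percent (bars: 95% Wilson interval, counting error only) and the number of members with a count, coloured by run. Replicate 2 of the B8 control in run 6 lies highest at 0.238%, and heat shock set b has 547 detected members against 793 in set a.

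In run 3 the 4 libraries numbered 1 had shares of 0.0647 to 0.0970% and the 4 numbered 2 had 0.111 to 0.146%, so that replicate number separated the libraries and treatment did not. The libraries numbered 2 also had fewer assigned reads, 3854622 to 4330581 against 4848456 to 5056322. A fixed number of reads was drawn per run, so a smaller part of their drawn reads was assigned to genes. The part of this in the share was not tested. Between control and IAA in C64 the share was 0.0792% ± 0.0105 and 0.0879% ± 0.00639 at 6 h, and 0.0949% ± 0.0271 and 0.104% ± 0.00992 at 16 h (SD, n = 2 libraries each). The ranges of the libraries with and without IAA overlapped there, under heat shock, under retinoic acid and in B8 of run 6. They did not overlap in B8 of run 8, where controls had 0.0709% ± 0.00175 and IAA libraries 0.0925% ± 0.0128 (SD, n = 2 each). As a sum over chosen genes, the share received no test.

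Between 474 and 949 members had at least 1 count in a library, and a detected member had 2.55 to 7.35 counts on average. Members with 20 or more counts numbered 3 to 46 per library. Over all libraries 86 members had a count in every library, 94 reached 20 counts in at least 1 library, and 0 reached 20 in every library. Heat shock set b had the fewest detected members of C64, 547, with 7.35 counts for each, whereas heat shock set a had 793 members with a count.

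Per length, members were far below the typical gene. The median of the members' mean levels was 0.0829 in C64 and 0.112 in B8, against 0.524 over all genes in C64. A mean level of 1 or more was reached by 8 members in C64, 0.717% of them, and by 37.1% of all genes. The 5th and 95th percentiles of the members were 0.0302 and 0.361. Mean levels of the members in C64 and in B8 had a Spearman rho of 0.626 over 1116 genes, which share the counting rule and gene lengths in both lines.

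Of the other chemoreceptor families, some lay close to the members in C64 and others above them. The 230 vomeronasal type 1 receptors, which detect pheromones, had a median level of 0.0850 in C64, and the 125 type 2 receptors had 0.0667. The 35 bitter taste receptors stood at 0.0889 and the 15 Mrgpr genes, mostly of sensory neurons, at 0.0948. The 8 formyl peptide receptors had 0.137, and the 16 trace amine-associated receptors, which also serve olfactory sensory neurons, had 0.216, which was 2.61-fold the members' median. In B8 the formyl peptide receptors had 0.0515, against 0.112 for the members. Genes of these 2 families are short, with median lengths of 1026 and 1051 bp, and the 96 members under 1200 bp had a median of 0.134 in C64. The part of length was not tested. Among families of other tissues the medians were 0.196 for 42 beta-defensins, 0.230 for 58 keratin-associated proteins and 0.393 for 13 interferon alpha genes. The 85 ribosomal protein genes had a median of 10.0, which was 121-fold the members' median, and the 39 proteasome subunit genes had 2.18, which was 26.2-fold.

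**Figure D2:**
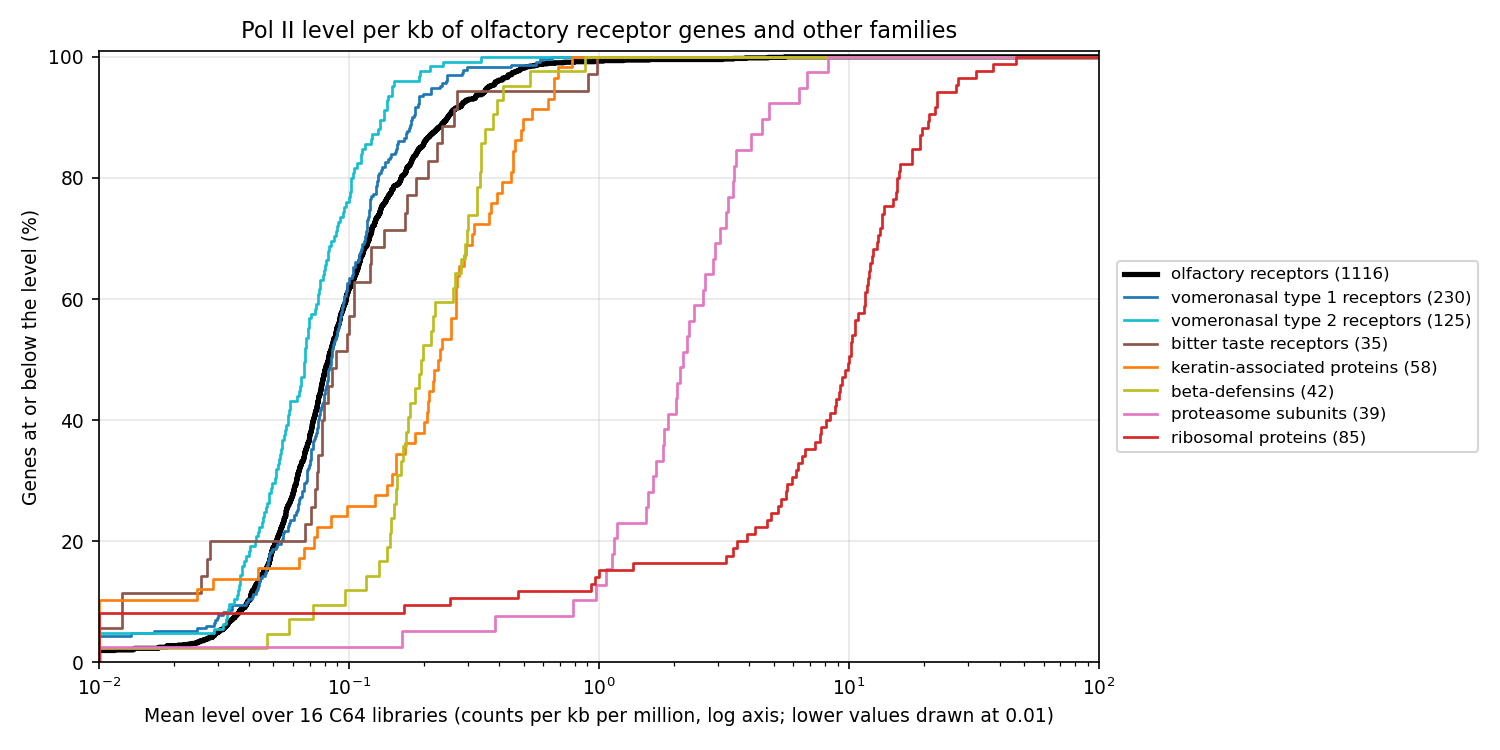
Cumulative share of genes (percent) at or below a mean level over the 16 C64 libraries (CPM per kb, log axis) for olfactory receptor genes and other families. The olfactory and vomeronasal receptors run together at medians of 0.0829, 0.0850 and 0.0667, and the proteasome and ribosomal protein genes lie at 2.18 and 10.0.

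Pooled over their summed length, members stood at 1.09 to 1.90 times the 355 vomeronasal genes in the same library (median 1.59). Without the 12 highest members this ratio was 1.03 to 1.56, above 1 in each of the 24 libraries. Pooled member levels were 0.0864 to 0.318 and pooled vomeronasal levels 0.0498 to 0.293.

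In bulk libraries, Pol II on a gene in a few cells and a little on it in every cell cannot be told apart. A small number of members stood out. The 12 highest in C64 held 13.4% of all member counts in 0.870% of the members' length, and 10 of them were also among the 12 highest in B8. Olfr1373 was first with 5.55 ± 2.93 (SD, n = 16 libraries), a short gene of 936 bp on chromosome 11 (GRCm38, 52144593 to 52145528, minus strand) with 8 to 52 counts per C64 library. Olfr543 followed with 4.75 ± 2.21, then Olfr986 with 3.87 ± 2.39, Olfr90 with 3.45 ± 1.04 and Olfr692 with 3.12 ± 1.45. The next were Olfr544, a receptor known to respond to azelaic acid, with 1.59 ± 0.693, Olfr1371 with 1.25 ± 0.740 and Olfr91 with 1.04 ± 0.481. Olfr94, Olfr221, Olfr279 and Olfr222 had means of 0.964, 0.799, 0.723 and 0.666, and the 13th member had 0.622. Neighbours in this order overlapped in their spread. In B8 Olfr545 and Olfr371 took the places of Olfr94 and Olfr222.

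Ranges of single libraries were wide. Olfr1373 had a lowest, median and highest level of 1.97, 4.70 and 11.5 in C64, and 0.423 to 18.1 in B8, where it had 1 to 19 counts. Olfr543 ranged from 0.870 in heat shock set a to 8.18 in replicate 1 of retinoic acid with IAA, with a median of 4.61. Its levels in run 2 were 0.870 to 4.15 and in run 3 5.07 to 8.18, so the runs did not overlap for this gene. Olfr90 ranged from 1.74 to 5.66 (median 3.43), the narrowest range relative to its mean among the 5 highest. Across the 16 C64 libraries, the log2 level of Olfr1373 was most like that of Olfr57 (Pearson r = 0.831), Olfr543 (0.672) and Olfr362 (0.645), in libraries that share runs and replicate sets.

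**Figure D3:**
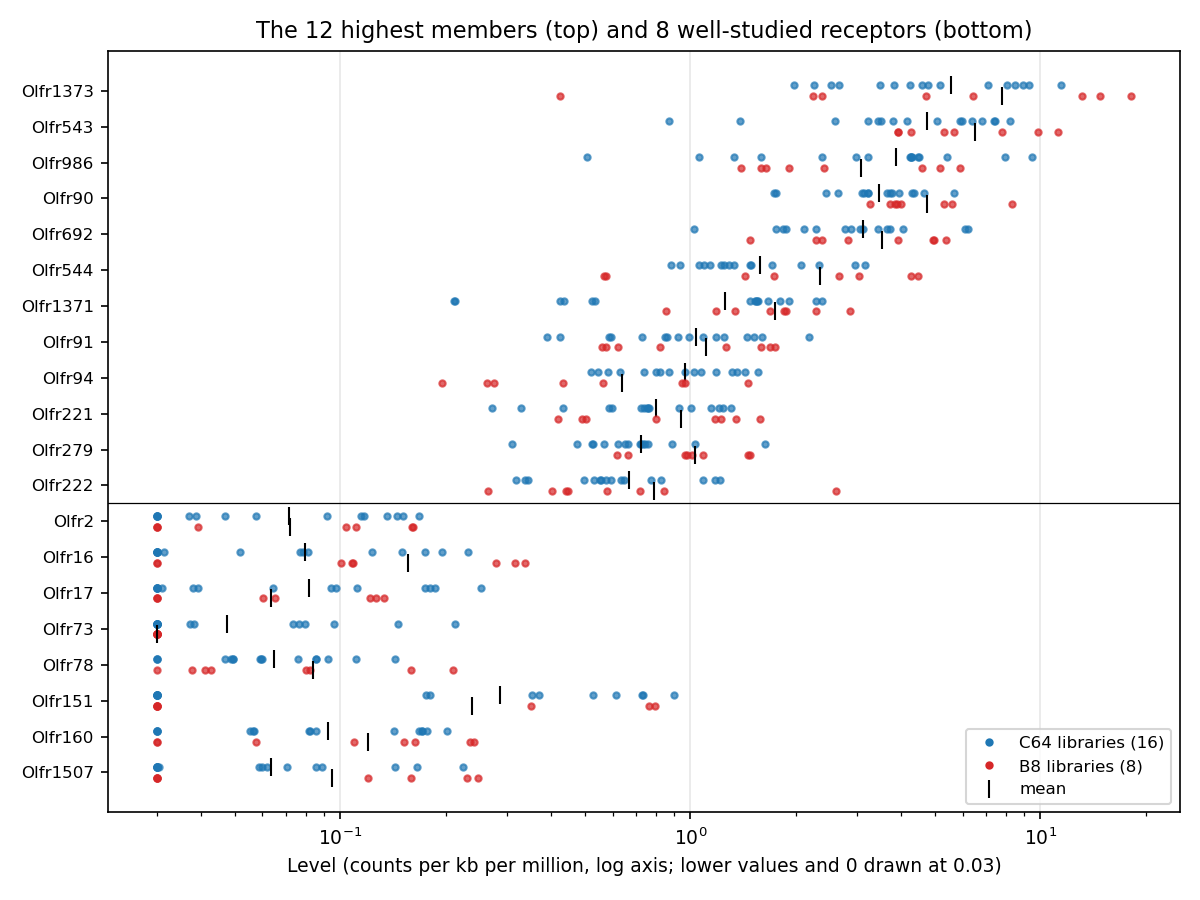
Levels of the 12 highest members (top) and of 8 well-studied receptors (bottom) in CPM per kb on a log axis, with a point for each of 16 C64 and 8 B8 libraries and a bar for the mean. Olfr1373, Olfr543 and Olfr986 lead with means of 5.55, 4.75 and 3.87 in C64, and each well-studied receptor has a mean below 0.3.

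The receptors best known from work on odour coding were not among them. Mean levels in C64 ran from 0.0475 for Olfr73, a receptor for eugenol, to 0.286 for Olfr151 (M71), a receptor for acetophenone. Olfr16, which is also known from sperm, had 0.0796 ± 0.0747 (SD, n = 16), Olfr17 had 0.0813 ± 0.0801 and Olfr160 had 0.0923 ± 0.0702. Olfr78, a receptor for short-chain fatty acids, had 0.0646 ± 0.0334, Olfr2 had 0.0714 ± 0.0598 and Olfr1507 had 0.0636 ± 0.0665. Each SD was close to its mean apart from that of Olfr78, as counts of 0 to 9 per library are for a gene such as Olfr2. The mean of Olfr151 rested on 0 to 5 counts per C64 library and 7 of the 16 libraries held 0.

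At the other end, 20 members had no count in any of the 16 C64 libraries, and 19 of them overlapped another gene of the tables, over which reads were not counted. Of these, 7 lie inside the annotated span of Olfr643, a member whose table entry is 138606 bp long. The longest of the 20 were Olfr287, Olfr639 and Olfr288. With their whole length countable, 3 counts over the 16 libraries would have meant levels of 0.00284, 0.00361 and 0.00420. Each overlaps another gene, and Olfr639 lies wholly inside the span of Olfr643, so these levels are no upper bounds. In B8 53 members had no count, and 19 had none in all 24 libraries. In all, 93 members overlapped another gene and 1023 overlapped none.

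Position along the chromosome went with the level. A gene that was no member was called transcribed when its mean over the 4 C64 control libraries was 1 or more, which held for 9929 genes, 3 of them pseudogenes named Olfr. The 77 members within 50 kb of such a gene had a median level of 0.321 in C64, and the 1039 members farther away had 0.0789, a ratio of 4.08. In B8 the medians were 0.318 and 0.106, with a ratio of 3.01. The pooled level of the near members was the higher in 24 of 24 libraries, by 2.47 to 6.76 times. Without the 3 Olfr pseudogenes, an alternative chosen after seeing the data, the same 77 and 1039 members fell on either side and the ratio was again 4.08. Genes of a cluster are not independent, so these are descriptions without a test.

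Medians fell through each class of distance. The 11 members within 10 kb had a median of 0.487, followed by 0.393 for 17 members at 10 to 20 kb, 0.266 for 49 at 20 to 50 kb and 0.180 for 70 at 50 to 100 kb. Beyond that the medians were 0.124 for 140 members up to 200 kb, 0.0896 for 300 up to 500 kb and 0.0632 for 529 farther away. Spearman rho of level with distance was -0.559 over 1116 members, many of which share a cluster. Of the 12 highest members, 10 lay within 50 kb of a transcribed gene, with or without the Olfr pseudogenes counted.

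**Figure D4:**
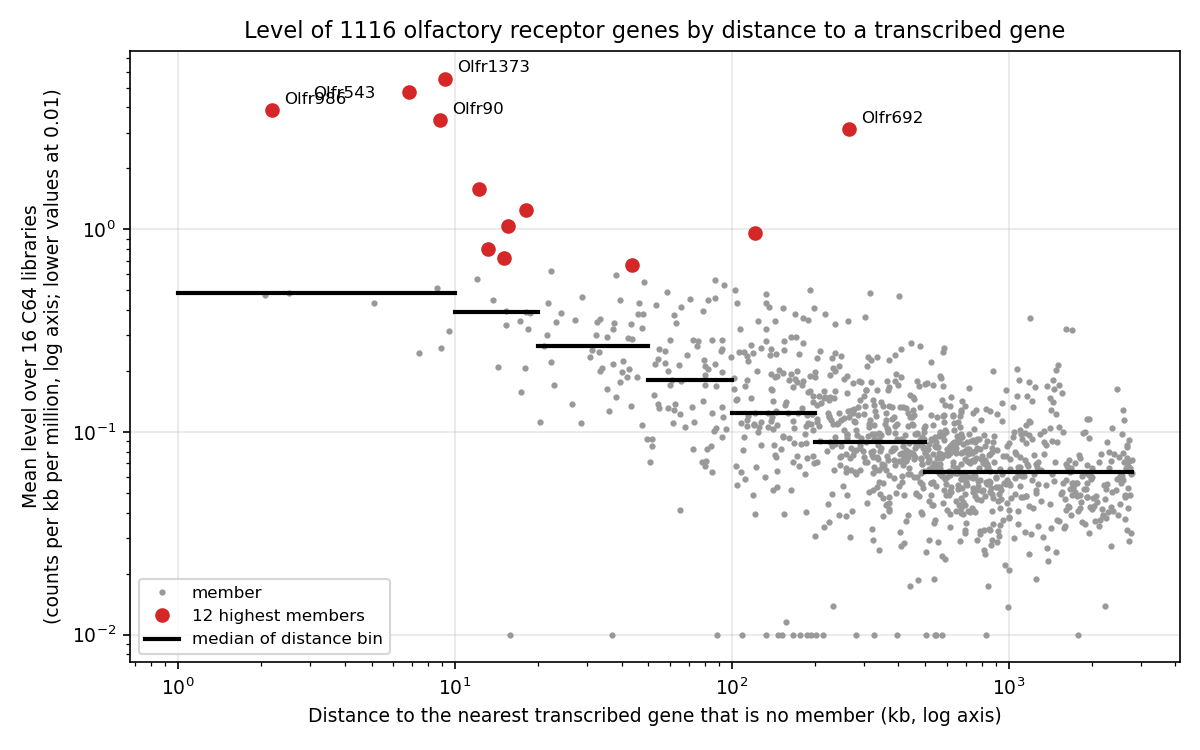
Mean level of each of the 1116 members over the 16 C64 libraries (CPM per kb, log axis) against its distance to the nearest transcribed gene that is no member (kb, log axis, Olfr pseudogenes included). Medians of the distance classes fall from 0.487 within 10 kb to 0.0632 beyond 500 kb, and 10 of the 12 highest members lie within 50 kb.

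The highest members had neighbours of several kinds. Olfr1373 lies 9.19 kb from the receptor pseudogene Olfr1372-ps1, which had a level of 1.52, and 16.8 kb from Ppp2ca, which encodes a catalytic subunit of protein phosphatase 2A and had 7.88. Olfr543 and Olfr544 lie 6.81 and 12.3 kb from Rrm1, which encodes the large subunit of ribonucleotide reductase and had a level of 2.26. Olfr90 and Olfr91 lie 8.80 and 15.6 kb from Gabbr1, a GABA-B receptor subunit gene at 2.96. Olfr1371 lies 18.0 kb from Skp1a, a subunit gene of SCF ubiquitin ligases at 5.68, and Olfr221 lies 13.2 kb from the zinc finger gene Zfp219 at 3.56. For Olfr692 the nearest gene was Fam160a2 at 1856 bp with 0.943, and for Olfr94 it was Ubd, a ubiquitin-like modifier gene, at 330 bp with 0.318. The nearest transcribed genes of those 2 members were 264.8 and 121.4 kb away. Among the 5 highest members, 4 had a level above that of their nearest gene outside the members (Olfr1373, Olfr543, Olfr90 and Olfr692), and Olfr986 was below Zfp202. For Olfr1373 the nearest gene was the pseudogene, and its own level of 5.55 was below that of Ppp2ca. For Olfr692 the nearest gene, Fam160a2, was itself under the level called transcribed.

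Chromosomes differed as well. Among chromosomes with at least 20 members, the median was highest on chromosome 4 (0.283, 24 members) and lowest on chromosome 2 (0.0596, 288 members), a ratio of 4.74. The 83 members on chromosome 11 had 0.217, whereas the 239 on chromosome 7 and the 133 on chromosome 9 had 0.0849 and 0.0923. The median of all other genes was 1.64 on chromosome 11, 0.888 on chromosome 4 and 0.697 on chromosome 2. The 6 members on chromosome X had 0.0422. Short members were somewhat higher, with a median of 0.134 for the 96 under 1200 bp and 0.0735 to 0.0941 in the longer classes.

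Promoter sequences were taken from RefSeq (GRCm38.p6) as the 250 bases before the annotated start, and 939 members could be matched. Such a window can lie inside the span over which reads were counted, as for Olfr986, Olfr543, Olfr90, Olfr16, Olfr17 and Olfr160. For Olfr1373 it lies just before that span. How many of the 939 windows lie inside was not counted, so a window need not be the promoter of the counted entry. The members' windows held a median of 1 CpG, against 11 in the 16892 other genes, and 44.5% of them held none, against 4.64%. Their median GC content was 34.0% against 56.4%. The letters TATAAA, searched on both strands and unable to overlap a CpG, were present in 39.4% of the members' windows and in 10.3% of the others. A match is a description of the letters only. The sequences below show a member next to a transcribed gene, that gene, the highest member and a well-studied receptor, in lower case and 5′ to 3′ with each CpG in capitals.
Olfr986: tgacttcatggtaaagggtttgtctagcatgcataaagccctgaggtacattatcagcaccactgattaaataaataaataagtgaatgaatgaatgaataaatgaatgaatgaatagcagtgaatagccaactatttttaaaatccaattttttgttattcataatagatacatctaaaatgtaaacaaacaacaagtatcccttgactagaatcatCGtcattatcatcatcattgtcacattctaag
Zfp202: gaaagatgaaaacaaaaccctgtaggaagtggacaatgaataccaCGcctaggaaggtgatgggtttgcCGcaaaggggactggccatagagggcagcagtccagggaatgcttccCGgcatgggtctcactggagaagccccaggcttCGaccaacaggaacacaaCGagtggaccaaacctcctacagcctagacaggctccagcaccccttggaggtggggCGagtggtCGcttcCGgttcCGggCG
Olfr1373: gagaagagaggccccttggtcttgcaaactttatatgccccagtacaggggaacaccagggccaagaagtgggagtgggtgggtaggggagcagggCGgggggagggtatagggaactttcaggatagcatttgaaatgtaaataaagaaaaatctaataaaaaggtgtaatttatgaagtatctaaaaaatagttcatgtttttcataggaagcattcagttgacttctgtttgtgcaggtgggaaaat
Olfr16: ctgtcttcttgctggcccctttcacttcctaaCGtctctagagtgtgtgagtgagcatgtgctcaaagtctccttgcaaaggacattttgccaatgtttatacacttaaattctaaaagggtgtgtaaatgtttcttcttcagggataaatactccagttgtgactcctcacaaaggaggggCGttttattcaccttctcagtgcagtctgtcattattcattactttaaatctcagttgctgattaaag
They lie at chr9:40186829-40187078 (plus strand), chr9:40192066-40192315 (plus strand), chr11:52145529-52145778 (minus strand) and chr1:172956518-172956767 (plus strand). The Olfr986 window holds 1 CpG and has 30.0% GC, whereas that of its neighbour Zfp202 holds 10 CpGs and has 58.0%. Olfr1373 holds 1 CpG and Olfr16 holds 2.

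Within the family, levels went with base composition. Over the 939 matched members, Spearman rho of level with promoter GC content was 0.409 and with CpG number 0.173. The 235 members with the lowest GC (15.2 to 30.0%) had a median level of 0.0658 and the 235 with the highest (38.8 to 63.2%) had 0.166. Members without CpG had a median of 0.0769 (418 members), those with 1 to 2 had 0.0841 (436), those with 3 to 5 had 0.146 (76) and those with 6 or more had 0.302 (9). In the deposited list of genes with a TATA box were 65 members (5.82%) and 19.1% of the other genes of the tables, and members in and outside the list had medians of 0.0822 and 0.0830.

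TBP loss was compared by edgeR's quasi-likelihood test over all genes with enough counts, and a gene was called at a Benjamini-Hochberg adjusted p below 0.05. Few members had enough counts, and a member could also enter through the higher group alone. For 6 h of IAA in C64, 20 of 1116 members were tested and 0 were called, with 0% of all 16157 genes tested called higher and 0.0433% lower. None of these members had an unadjusted p under 0.05 by this test, by edgeR's likelihood-ratio test or by DESeq2. The smallest p was that of Olfr54, at a log2 fold change of +0.72 ± 0.41 (SE, edgeR adjusted p = 0.99997). For 16 h of IAA 27 members were tested and 0 called, where 0% of 16349 genes were called in either direction, and 1 member had an unadjusted p under 0.05 by each of the 3 tests.

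In the quasi-likelihood test that member was Olfr1373. Its levels in run 3 were 4.25 and 1.97 in controls and 11.5 and 8.91 with 16 h of IAA, which did not overlap, from 20 and 8 counts against 52 and 34. The log2 fold change was +1.65 ± 0.51 (SE, edgeR adjusted p = 0.999). With the replicate number as a block it was called, at +1.68 ± 0.46 (edgeR adjusted p = 0.0126), in a fit that called 0.734% of all genes higher and 1.43% lower. Olfr1373 had enough counts for both fits only through the IAA libraries, so this call cannot stand as support for a rise. At 6 h in run 2 its levels were 3.82 and 4.60 in controls and 4.79 and 7.10 with IAA, at +0.47 ± 0.40 (edgeR adjusted p = 0.99997).

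In the TBP-depleted B8 clone, without TRF2, 7 members had enough counts, of which 1 was lower and 1 higher after 6 h of IAA, where 3.09% of 14357 genes were called lower and 2.26% higher. Olfr986 fell. Its control levels were 5.16 and 2.41 in run 6 and 5.89 and 4.60 in run 8, and its IAA levels were 1.65 and 1.91 in run 6 and 1.40 and 1.59 in run 8, below the controls in both runs. The log2 fold change was -1.64 ± 0.26 (SE, edgeR adjusted p = 0.00216), and it ranged from -1.85 to -1.46 with each of the 8 libraries left out, past the threshold each time. In C64 the same 6 h gave 4.49 and 4.27 in controls and 4.47 and 4.26 with IAA, a log2 fold change of -0.03 ± 0.17 (edgeR adjusted p = 0.99997). The test of the difference between the lines, added after these values were seen, gave -1.42 ± 0.50 (SE, edgeR adjusted p = 0.277) and was not called. In it 0.0745% of 17456 genes were called lower in B8 and 0.246% higher.

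Olfr986 lies on chromosome 9 from 40180920 to 40190134 on the plus strand (GRCm38), and 2182 bp downstream of its end begins Zfp202, a KRAB zinc finger gene on the same strand. The annotated RefSeq start of Olfr986, just after the sequence printed above, lies inside the span over which its reads were counted. Zfp202 moved with it in B8. Its levels were 7.35 and 4.85 in run 6 controls and 3.78 and 3.10 with IAA, and in run 8 they were 13.1 and 12.4 against 5.22 and 4.89. The log2 fold change was -1.22 ± 0.16 (SE, edgeR adjusted p = 0.000533). Reads were counted without strand, and whether Pol II over Olfr986 belongs to that gene or to the start of Zfp202 cannot be told apart in gene counts.

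**Figure D5:**
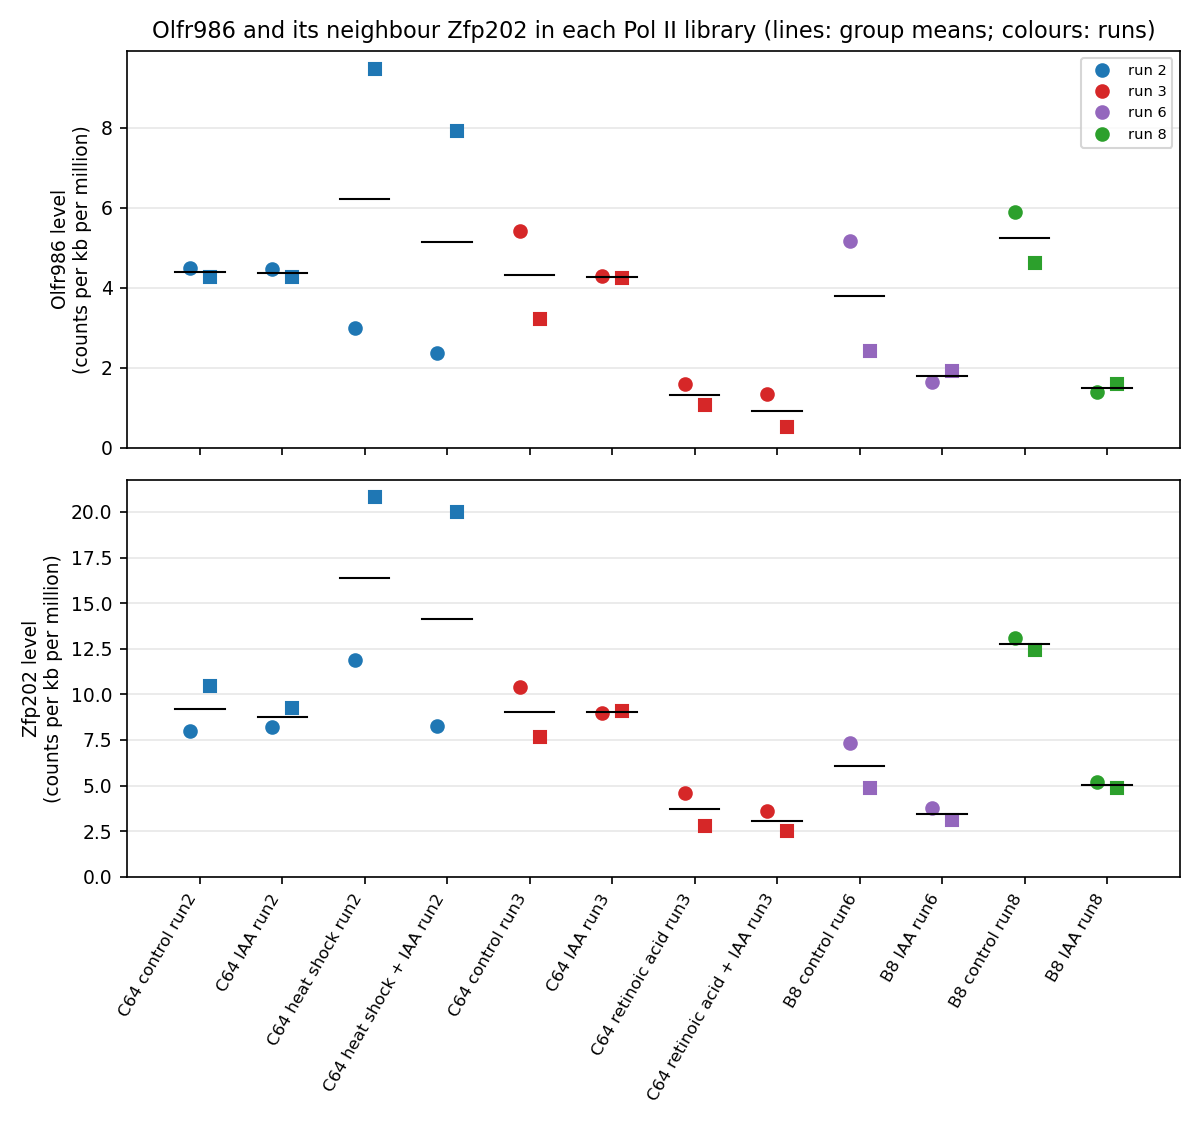
Levels of Olfr986 (top) and of its neighbour Zfp202 (bottom) in each of the 24 Pol II libraries, in CPM per kb with lines for group means and colours for runs. Both lie lowest in the retinoic acid and B8 IAA groups and highest in heat shock set b, where they reach 9.47 and 20.8.

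The other member called in B8 was Olfr1564 on chromosome 17. Its levels in run 6 were 0.412 and 0.318 in controls and 1.45 and 1.60 with IAA. In run 8 they were 0.265 and 0.153 against 0.368 and 1.16, from 7 and 4 counts against 9 and 29. The groups overlapped over both runs, and 1 IAA library of run 8 was close to the controls. Olfr1564 had enough counts for the test only through IAA libraries, as its controls held 3 to 7. Its call therefore cannot stand as support for a rise. The log2 fold change was +1.85 ± 0.46 (SE, edgeR adjusted p = 0.0242), and without replicate 1 of the control or of IAA in run 6, or replicate 2 of IAA in run 6, the adjusted p was 0.0790, 0.0752 and 0.0816. With any of the 4 libraries of run 8 left out it no longer had enough counts for the test. With the replicate number within run as a block, where 1.3% of all genes were called higher and 1.73% lower, its adjusted p by edgeR was 0.0555 and Olfr986 was still called. The test of the difference from C64 gave +2.10 ± 0.59 (edgeR adjusted p = 0.128).

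Under heat shock the comparison with and without IAA gave 35 members tested and 0 called, where 0% of 16628 genes were called in either direction. Under retinoic acid 34 members were tested and 0 called, where again 0% of 16439 genes were called. Unadjusted p values under 0.05 were seen for 3 and 0 of these members by this test, 4 and 1 by edgeR's likelihood-ratio test and 2 and 0 by DESeq2. With the replicate block 0 members were called for 6 h of IAA in C64 (0.111% of all genes higher and 1.08% lower), for IAA under heat shock (0.0902% and 0.559%) and for IAA under retinoic acid (0.401% and 0.639%). Over all 6 contexts 52 members were tested and 0 called, with 0.0931% of 17179 genes higher and 0.704% lower, and 5 members had an unadjusted p under 0.05 (6 by the likelihood-ratio test, 5 by DESeq2). In that fit Olfr986 had a log2 fold change of -0.58 ± 0.24 (edgeR adjusted p = 0.375), and with blocks for replicate numbers in C64 it was called, at -0.54 ± 0.15 (edgeR adjusted p = 0.0352), where 3.08% of all genes were called lower and 0.704% higher.

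Heat shock was compared next. In the libraries without IAA 25 members were tested and 0 were called, where 1.57% of 16332 genes were called higher and 1.46% lower, and 3 members had an unadjusted p under 0.05 (3 by the likelihood-ratio test, 1 by DESeq2). The smallest was that of Olfr15, with levels of 0.330 and 0.192 in controls and 0.670 and 0.889 after heat shock, at +1.53 ± 0.46 (SE, edgeR adjusted p = 0.0848). With the library set as a block it was called, at +1.53 (edgeR adjusted p = 0.0164), where 3.98% of all genes were called higher and 4.43% lower. Olfr15 entered this test through the heat-shocked libraries, as the control with 13 counts fell short. Olfr543 and Olfr986 differed between the heat shock libraries, with 0.870 and 3.80 for the first and 2.98 and 9.47 for the second in sets a and b.

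With both IAA states together, 29 members were tested and 2 were higher after heat shock, where 7.5% of 16593 genes were called higher and 8.97% lower. Olfr15, on chromosome 16 and 2.52 kb from the zinc finger gene Zfp174, rose by 1.10 ± 0.29 on the log2 scale (SE, edgeR adjusted p = 0.0224). Its levels in the 4 heat-shocked libraries were 0.510 to 0.889 and in the 4 others 0.192 to 0.374, without overlap. Olfr539 rose by 1.06 ± 0.34 (SE, edgeR adjusted p = 0.0486), from levels of 0.111 to 0.218 to levels of 0.212 to 0.517, which overlapped, and its span overlaps that of the pseudogene Olfr540-ps1. Both rest on few counts, 34 to 61 against 13 to 25 for Olfr15 and 19 to 45 against 10 to 20 for Olfr539. Olfr539 had enough counts for the test only through heat-shocked libraries, so its call cannot stand as support for a rise. Olfr539 lost its call with 7 of 8 libraries left out in turn and Olfr15 with 4 of 8. With the library set as a block Olfr373 was called as well, at +0.75 (edgeR adjusted p = 0.0385), where 12.1% of all genes were called higher and 14.7% lower.

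Pol II over Olfr986 was lower with retinoic acid. Its run 3 levels were 5.42 and 3.21 in controls and 4.30 and 4.23 with IAA, against 1.59 and 1.06 with retinoic acid and 1.33 and 0.507 with both, without overlap. Without IAA alone, 27 members were tested and 0 were called, where 0.0122% of 16350 genes were called higher and 0.00612% lower, and 5 had an unadjusted p under 0.05 (5 by the likelihood-ratio test, 4 by DESeq2). Olfr986 had -1.74 ± 0.38 there (SE, edgeR adjusted p = 0.373). With both IAA states, 34 members were tested and 1 was called lower and 0 higher, where 0.843% of 16609 genes were lower and 0.602% higher. This was Olfr986, at -1.95 ± 0.32 (SE, edgeR adjusted p = 0.0136), and without replicate 1 of the run 3 control it was no longer called, at -1.80 (edgeR adjusted p = 0.0624).

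Zfp202 again moved with it, from 7.66 to 10.4 in the 4 libraries without retinoic acid to 2.52 to 4.59 in the 4 with it, at -1.44 ± 0.22 (SE, edgeR adjusted p = 0.0103). Heat shock set b, which held the highest Olfr986 level of 9.47, also held the highest Zfp202 level of 20.8. By group, the mean of Olfr986 was 0.919 to 6.23 and that of Zfp202 3.06 to 16.4, with both lowest under retinoic acid with IAA and highest under heat shock. In heat shock set a they parted. There Olfr986 had 2.98, below the run 2 controls (4.49 and 4.27), and Zfp202 had 11.9, above its controls (7.97 and 10.5).

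With the replicate number as a block, 4 of 27 members were called for retinoic acid alone and 5 of 34 with both IAA states. These fits also called more of all genes, with 4.75% higher and 6.64% lower for retinoic acid alone, and 6.44% and 7.5% with both IAA states. For retinoic acid alone these were Olfr986 (-1.74, edgeR adjusted p = 4.49e-12), Olfr91 (-1.47, edgeR adjusted p = 0.0138), Olfr544 (+1.10, edgeR adjusted p = 0.00338) and Olfr221 (+1.86, edgeR adjusted p = 0.00106). Olfr221 had levels of 0.328 and 0.272 in controls and 1.24 and 1.002 with retinoic acid, and Olfr544 had 1.49 and 1.29 against 3.16 and 2.95. Olfr91 had 0.727 and 1.60 in controls against 0.389 and 0.425. For retinoic acid alone Olfr221 had enough counts only through the retinoic acid libraries, and Olfr91 only through the controls. The calls of Olfr221 and Olfr91 there cannot stand as support for a change. With both IAA states Olfr90 was also lower (-0.83, edgeR adjusted p = 0.00353). Gabbr1, beside Olfr90 and Olfr91, was lower without the block (-0.86 ± 0.17 SE, edgeR adjusted p = 0.0329), whereas Rrm1, beside Olfr544, had +0.28 ± 0.17 (edgeR adjusted p = 0.552).

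B8 controls were compared with the C64 controls of run 2, where cell line and run cannot be told apart. In this comparison 12 members were tested and 0 called, with 0% of 16316 genes called in either direction. None of the members had an unadjusted p under 0.05 by this test, and 1 did by the likelihood-ratio test and by DESeq2. The smallest p was that of Olfr372, at +1.23 ± 0.59 (SE, edgeR adjusted p = 0.847). Members at a level of 0.5 or more numbered 21 in C64 and 37 in B8, from libraries of lower depth in B8.

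The genes that serve olfactory receptors were followed as a list of 33. Of these 13 had a mean level of 1 or more in C64, all with uses outside the nose, such as Atf5 (8.01) and Ddit3 (7.99) of the stress response, the chromatin remodeller gene Bptf (6.55), the G protein gamma subunit gene Gng13 (6.26) and the Lhx2 cofactor gene Ldb1 (4.18). Genes of the signalling chain in the cilium spanned a wide range. The channel gene Cnga2 had 0.0432, the G protein alpha subunit gene Gnal 0.367, the channel gene Cngb1 0.913 and the adenylyl cyclase gene Adcy3 0.915, while the G protein beta subunit gene Gnb1 had 2.88. The receptor transport gene Rtp1 had 0.254. Of 28 tested, 2 rose and 3 fell after heat shock with and without IAA, where 7.5% of all genes tested were higher and 8.97% lower, so the list was near the background. The genes that rose were Ebf1 (+0.44 ± 0.12 SE, edgeR adjusted p = 0.0246) and Ncam1 (+0.45 ± 0.13, edgeR adjusted p = 0.0325). The genes that fell were Cbx5, which encodes HP1 alpha (-0.60 ± 0.13, edgeR adjusted p = 0.00874), Ric8b (-0.58 ± 0.13, edgeR adjusted p = 0.00914) and Atf5 (-0.73 ± 0.16, edgeR adjusted p = 0.0104). In B8 1 of 26 fell with IAA, where 3.09% of all genes tested were lower, and this was again Cbx5 (-0.54 ± 0.12, edgeR adjusted p = 0.0235). In the other 9 comparisons 0 of 28 were called.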

How the data were processed

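Pol II CUT&Tag libraries were processed by the authors, who aligned reads to mm10 (GRCm38) with Bowtie2, kept PCR duplicates, drew a fixed number of reads per run and counted read pairs over whole genes with featureCounts 2.0.0, without strand and without reads over overlapping genes. The deposited tables hold these raw counts. Multi-mapped reads were not described as removed, so near-identical receptor paralogs may share reads. Columns found in more than 1 table held the same counts (14 column pairs, 0 counts different) and were used once.

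Counts were divided by gene length and by 1000000 reads assigned to the 27752 genes of the C64 tables. Differences were tested with edgeR 4.0.16 in R 4.3.3 (TMM, filterByExpr with a minimum count of 20, quasi-likelihood F test, Benjamini-Hochberg threshold 0.05 over all genes tested), with DESeq2 1.42.0 and edgeR's likelihood-ratio test as alternatives. TMM removes a change shared by all genes, and standard errors are Wald errors of unshrunk coefficients. B8 fits held run as a term, fits over both IAA states held IAA, and the fit over contexts held context. The script was tested on simulated counts.

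Deviations from group means of libraries with the same number correlated at r = 0.416 to 0.623 in run 3, numbered in the labels. In run 2 they correlated at 0.102 to 0.49 between the sets of column names. The reported C64 fits held no term for this pairing, and fits with it as a block are given as alternatives. In B8 r was -0.0316 in run 6 and 0.00185 in run 8, and libraries were not taken as paired.

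Members and lists were chosen with earlier results of these data known. Named were the 12 highest members in each line, those called, the 3 smallest p where none was called (in part), 8 well-studied receptors, members without counts and their neighbours, and the 3 members most like the highest. Olfr373 and the interaction values were added after their values were seen. Promoters were matched by symbol.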

Additional observations from a re-analysis of the deposited data

How the results depend on the processing

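Of 307 values under alternative settings, 249 kept their direction and call, or stayed within the spread between replicates or within 1.5 times. Only ratios by position and the fold changes of single members could turn direction, and 0 of them did. With detection set at 3 counts, the mean number of detected members was 481.4 in C64 and 216 in B8. The count of members called for heat shock with and without IAA was 5 with no filter on low counts, 5 at a minimum count of 5, 1 by DESeq2 and 1 with RLE scaling. For heat shock alone it was 1 by edgeR's likelihood-ratio test and 1 with the replicate block. For retinoic acid alone it was 1 with no filter, 2 by the likelihood-ratio test, 1 by DESeq2 and 4 with the replicate block, and for retinoic acid with and without IAA 2, 5, 4 and 5. The replicate block gave 1 member for 16 h of IAA in C64, 1 over all contexts and 1 for IAA in B8 (Olfr986), where DESeq2 gave 1 and the fit without run gave 1. It changed no other count by more than 1.5 times. The share of all genes called moved with the setting too. For retinoic acid alone the lower calls were 0.00612% in the reported fit, 0.112% with no filter, 0.538% by the likelihood-ratio test, 0.312% by DESeq2 and 6.64% with the block, and with both IAA states 0.843%, 0.731%, 2%, 2.25% and 7.5%. For heat shock with and without IAA the higher calls were 7.5%, against 4.72% with no filter, 5.29% at a minimum count of 5, 7.2% by DESeq2 and 6.8% with RLE scaling. For heat shock alone they were 1.57%, against 2.5% by the likelihood-ratio test and 3.98% with the block. In B8, where libraries only share a number, Olfr1564 had an adjusted p of 0.0555 with the block.

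With each library left out in turn, the count was 0 to 2 for heat shock, 0 to 4 for heat shock with and without IAA, 0 to 1 for retinoic acid, 0 to 1 with both IAA states and 1 to 3 for IAA in B8, and 0 in the other comparisons. The 2 for heat shock were Olfr986 and Olfr15 without heat shock set a, and Olfr543 and Olfr1509 without set b. The causes were not tested. Depth is a limit, as 7 to 52 of 1116 members had enough counts for a test, and gene counts over whole spans do not show where Pol II lay. An alternative restricting B8 comparisons to genes of the C64 tables, chosen after seeing the data, changed no count of members called.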
